A study of Arabidopsis thaliana with 6 samples.

Results

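The microRNA (miRNA) genes described here belong to 10 families that act in plant development and flowering, miR156, miR159, miR160, miR164, miR165, miR166, miR167, miR172, miR319 and miR396. They were chosen by name, as every nuclear gene called MIR plus a family number and a letter in the RefSeq gene table of Arabidopsis thaliana, and numbered 42 of 326 nuclear miRNA genes. A member was counted in a list if the maximum of a peak lay in the gene or within 3000 bp of it. The data came from chromatin immunoprecipitation followed by sequencing of JAGGED (JAG), a C2H2 zinc finger protein of growing floral organs. The 3 JAG-GFP samples came from jag-2 mutant plants that carried JAG:JAG-GFP, a genomic JAG gene fused to green fluorescent protein under its own promoter (pJAG), and the 3 wild-type samples came from L-er (Landsberg erecta) plants, which had neither the tag nor the jag-2 mutation. All samples were inflorescence tips with unopened buds from plants grown in 16 h of light and 8 h of dark, precipitated with anti-GFP beads. The labels state neither how many transgenic lines were used nor that replicates were separate sets of plants.

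The authors deposited 1 peak list per replicate number, and replicates 1, 2 and 3 had 2620, 2143 and 2127 peaks. Each peak had a start, an end, a maximum and a score. The score is the authors' own value on a scale that no source used here states, and list medians were 2.04, 2.08 and 2.12. The lists hold no value for the wild-type samples alone, no read depth and no expression level, so neither the tissue nor the amount of any miRNA could be checked. The list of replicate 3 stops on chromosome 1 at 23827070, and MIR159a, which lies beyond it, could be found in at most 2 lists.

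A miRNA gene is transcribed into a longer precursor with a hairpin, from which a short RNA is cut that pairs with messenger RNAs and lowers their output. In Arabidopsis miR156 represses SPL genes and holds plants in the juvenile phase, whereas miR172 represses AP2-like genes and favours flowering. miR396 acts on growth-regulating factor (GRF) genes, miR319 on TCP genes, miR159 on GAMYB-like MYB genes, miR164 on CUC and other NAC genes of organ boundaries, miR165 and miR166 on HD-ZIP III genes of the upper organ side, and miR160 and miR167 on genes of auxin response factors (ARF).

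Of the 42 genes, 6 had a peak in all 3 lists, namely MIR396b, MIR172b, MIR156i, MIR167a, MIR159b and MIR164b. That share, 14.3% (95% Wilson interval 6.72 to 27.8%), stands beside 7.39% of 284 other nuclear miRNA genes and 6.30% of 27444 nuclear protein-coding genes. The share of the other miRNA genes lay inside the interval and that of the protein-coding genes below it. With a window of 1000 bp the order turned round for this count, at 2.38% of members (1 of 42) against 3.05% of protein-coding genes. For a peak in at least 1 list the order held at 1000 bp, with 21.4% of members (9 of 42) against 15.9%. A peak in at least 1 list was found for 15 members (35.7%, 23.0 to 50.8%), against 22.5% of the other miRNA genes and 26.0% of protein-coding genes. In at least 2 lists it was found for 9 members (21.4%, 11.7 to 35.9%), against 10.6% of the other miRNA genes and 12.9% of protein-coding genes. The intervals cover counting error only and treat genes as independent, and no test was made of these differences. The shares also moved with the size of the window, and the sets of genes differed in gene length and surroundings. Median gene length was 124.5 bp for the members, 150.5 bp for the other miRNA genes and 2078 bp for protein-coding genes. The median distance between the protein-coding genes on either side was 5567 bp for the members, 3917 bp for the other miRNA genes and 5357 bp for protein-coding genes. That distance includes the gene itself, which is far longer for protein-coding genes, so it does not give the free space alone. The part of these lengths in the shares was not tested.

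**Figure D1:**
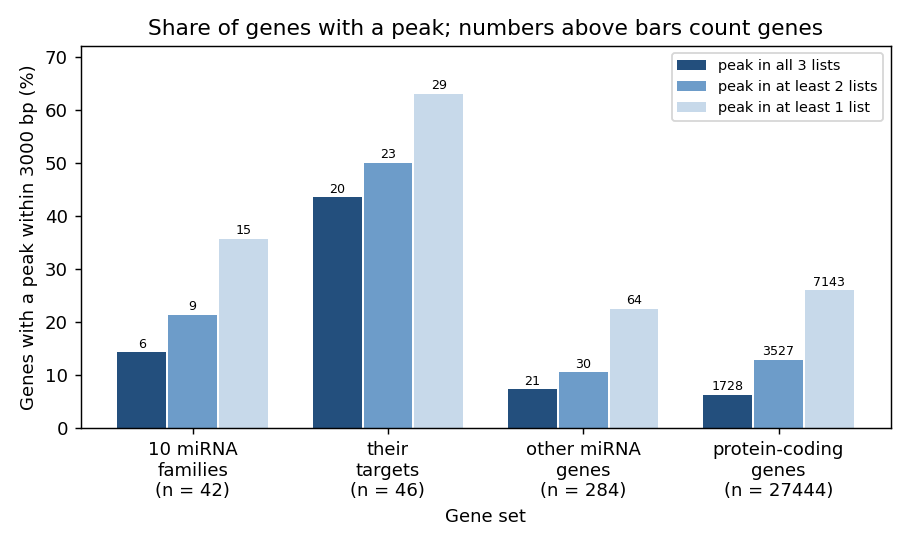
Percentage of genes (y axis) with the maximum of a peak in the gene or within 3000 bp, in the 42 genes of the 10 miRNA families, 46 target genes, 284 other nuclear miRNA genes and 27444 nuclear protein-coding genes (x axis). Dark, medium and light bars count genes with a peak in all 3, at least 2 and at least 1 of the lists, and the number on each bar counts genes; the dark bars stand at 14.3%, 43.5%, 7.39% and 6.30%.

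The growth-related family miR396 held the highest scores of any miRNA gene. Beside MIR396b (AT5G35407) the scores were 3.61 in replicate 1, 3.96 in replicate 2 and 4.46 in replicate 3. These peaks ranked 35 of 2620, 34 of 2143 and 33 of 2127. In each list MIR396b was the first of all 326 nuclear miRNA genes by its highest peak. The peaks overlapped on chromosome 5, from 13611847 to 13613146 in replicate 1, from 13612422 to 13612962 in replicate 2 and from 13611898 to 13612994 in replicate 3. Their maxima lay 823, 731 and 786 bp from the gene, on its higher-coordinate side, and were at most 92 bp apart. The peaks of replicates 1 and 3 reached into MIR396b itself, over 86 and 35 bp. The setting is sparse in genes, because the nearest protein-coding gene, AT5G35405, was 8011, 7919 and 7974 bp from the maxima. The other member of the family, MIR396a, had no peak nearby, the nearest maxima being 169727, 169734 and 169796 bp away.

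**Figure D2:**
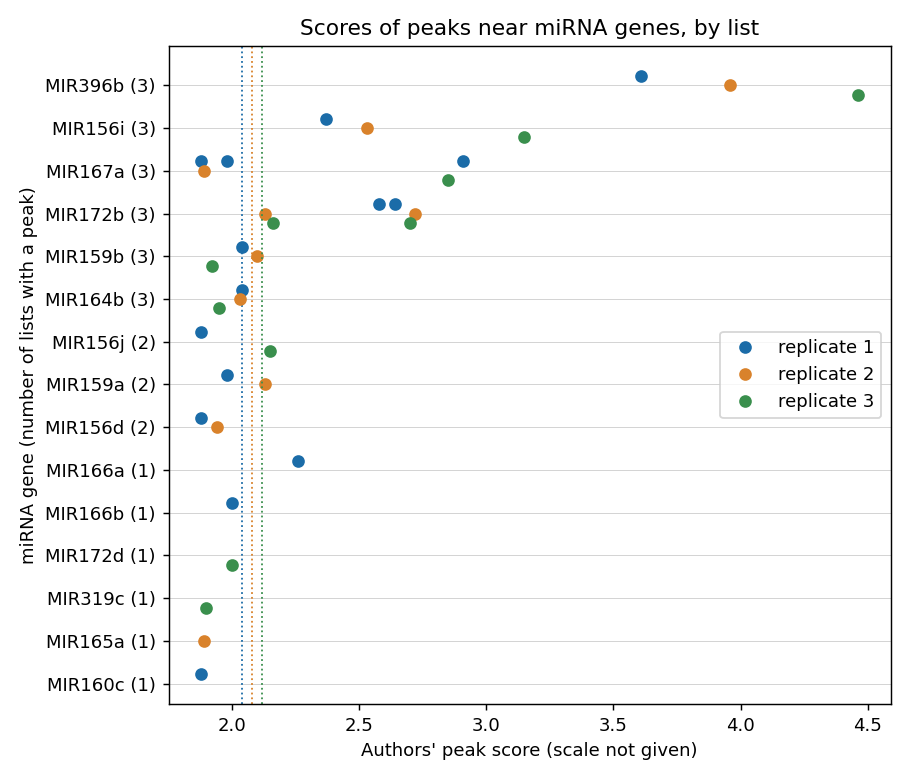
Authors' peak score (x axis, no unit given) of every peak near the 15 miRNA genes that had 1 (y axis, number of lists with a peak in parentheses), coloured by list. Dotted lines mark each list's median score of 2.04, 2.08 and 2.12; MIR396b stands to the right of all others at 3.61, 3.96 and 4.46, and most genes with a peak in 1 or 2 lists lie at or left of the medians.

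Of the 5 genes of miR172, which promotes flowering, MIR172b (AT5G04275) had 2 peaks in every list. In replicate 1 they scored 2.64 (chromosome 5, 1186365 to 1188212) and 2.58 (1184965 to 1186051). In replicate 2 they scored 2.72 (1186188 to 1187031) and 2.13 (1185312 to 1185825), and in replicate 3 they scored 2.70 (1184924 to 1186945) and 2.16 (1187047 to 1188077). All lay on the lower-coordinate side of the gene, and the lists placed the maxima at 3 positions. A maximum 606 and 610 bp from the gene appeared in replicates 1 and 3, 4 bp apart from each other. A maximum at 1645 and 1631 bp appeared in replicates 2 and 3, 14 bp apart, and one at 2794 and 2717 bp in replicates 1 and 2, 77 bp apart. No single maximum was thus placed alike in all 3 lists, although the peaks formed 1 chain of overlaps. The farthest position was nearer to the protein-coding gene AT5G04270, at 550 and 627 bp, than to MIR172b. The other positions were nearer to MIR172b.

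The remaining miR172 genes had less. MIR172d had a peak in replicate 3 with a score of 2.00 (chromosome 3, 20585495 to 20586165), 1950 bp from the gene but 534 bp from AT3G55513. MIR172a, MIR172c and MIR172e had none. MIR172a had a peak of every list just beyond the limit, with maxima at 4755, 4409 and 4419 bp and scores of 2.41, 2.15 and 1.97 in replicates 1, 2 and 3.

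The largest family was miR156, with 10 genes, of which MIR156i had a peak in all 3 lists and MIR156d and MIR156j in 2. Those 3 genes, and MIR156g, lie inside protein-coding genes, so their peaks cannot be assigned to the miRNA gene alone. MIR156i (AT1G07867) lies in SPL4 and MIR156j (AT2G09340) in SPL9, both of which are themselves targets of miR156. The peaks at MIR156i scored 2.37, 2.53 and 3.15 (chromosome 1, 19805041 to 19807256, 19805036 to 19806602 and 19805145 to 19806847). Their maxima were 50 to 112 bp apart from one another and lay 932, 982 and 870 bp from SPL4, on the lower-coordinate side, against 1586, 1636 and 1524 bp from MIR156i. All of these peaks therefore also count for SPL4.

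Within 3000 bp of MIR156j the 2 lists did not share a site. Replicate 1 had a peak with a score of 1.88 (chromosome 2, 17589344 to 17589934), with its maximum 26 bp beyond the end of SPL9. Replicate 3 had one with a score of 2.15 (17586711 to 17587800), with its maximum inside SPL9 and 2467 bp from that of replicate 1. MIR156d (AT5G10945), which lies inside AT5G10946, had overlapping peaks with scores of 1.88 in replicate 1 and 1.94 in replicate 2 (chromosome 5, 3457645 to 3458293 and 3457587 to 3458058). The maxima were 8 bp apart, and AT5G10946 was nearer to them than MIR156d. MIR156a, MIR156b, MIR156c, MIR156e, MIR156f, MIR156g and MIR156h had no peak within 3000 bp. No peak of this family could be nearer to the miRNA gene than to a protein-coding gene, because the 3 genes with peaks lie inside such genes.

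**Figure D3:**
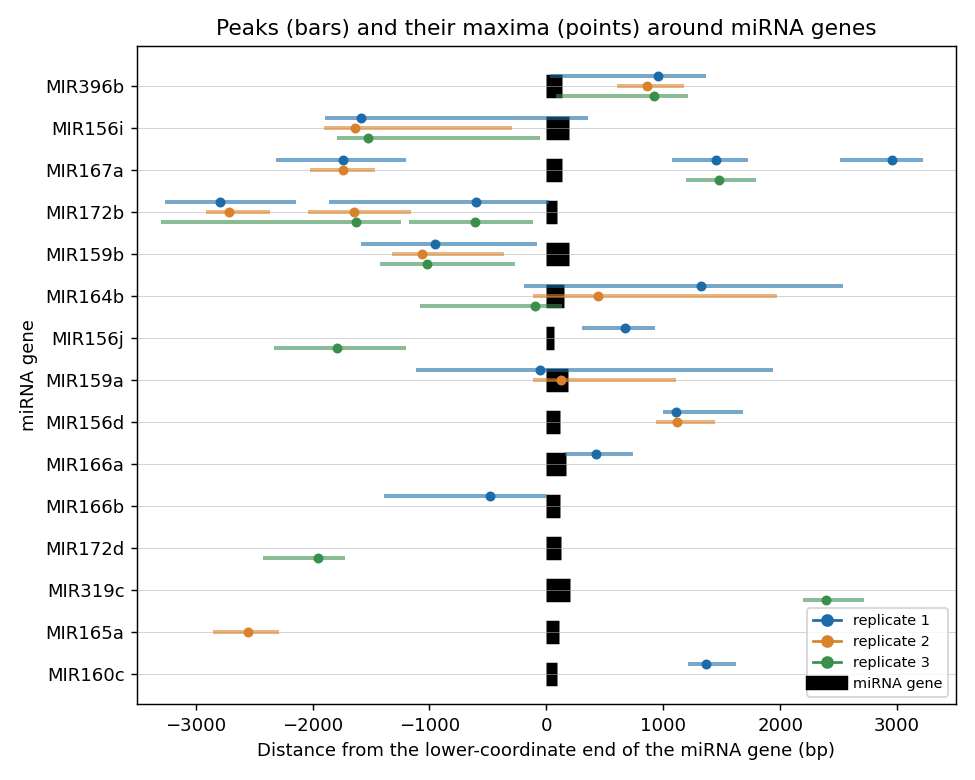
Peaks (horizontal bars) and their maxima (points) around the 15 miRNA genes with a peak, coloured by list, by distance in bp from the lower-coordinate end of the gene (x axis); black boxes are the miRNA genes, drawn to scale. The maxima of the 3 lists are at most 117 bp apart at MIR396b, MIR156i and MIR159b, whereas those at MIR164b are 541 to 1422 bp apart and those at MIR156j lie on opposite sides of the gene.

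Peaks lay over or beside miR159 genes, which repress GAMYB-like genes in Arabidopsis. At MIR159b (AT1G18075) the scores were 2.04, 2.10 and 1.92 in replicates 1, 2 and 3 (chromosome 1, 6219080 to 6220546, 6219342 to 6220265 and 6219237 to 6220358). The score reached the list's median in replicates 1 and 2 and was below it in replicate 3. The maxima were 950, 1067 and 1020 bp from the gene and 47 to 117 bp apart from one another, and each lay within an annotated long noncoding RNA, AT1G05377. The nearest protein-coding gene to them, AT1G18070, was 1312, 1195 and 1242 bp away. MIR159a (AT1G73687) was covered in full by a peak in both lists that extend to it, with scores of 1.98 in replicate 1 (chromosome 1, 27712139 to 27715159) and 2.13 in replicate 2 (27713133 to 27714324). The maximum of replicate 2 was the only one of any member that fell inside the miRNA gene, and that of replicate 1 lay 55 bp outside it. CDKD1;1, the nearest protein-coding gene, was 1732 and 1553 bp away. MIR159c had no peak.

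In the boundary family miR164, MIR164b (AT5G01747) was overlapped by a peak of each list, over 153, 153 and 115 bp of its length. The scores were low, 2.04, 2.03 and 1.95 in replicates 1, 2 and 3, with each at or below its list's median. The peaks ran on chromosome 5 from 287409 to 290104, from 287484 to 289536 and from 286522 to 287698. Their maxima did not coincide, being 881 bp apart in replicates 1 and 2, 1422 bp in replicates 1 and 3 and 541 bp in replicates 2 and 3. That of replicate 1 was nearer to AT5G01750, at 810 bp, than to MIR164b, at 1171 bp. MIR164a and MIR164c had no peak.

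Of the auxin-related families, miR167 had a site in each list near MIR167a (AT3G22886), but within 3000 bp no site common to all. A site on its higher-coordinate side scored 2.91 in replicate 1 and 2.85 in replicate 3 (chromosome 3, 8109167 to 8109779 and 8109286 to 8109846), with maxima 23 bp apart at 1318 and 1341 bp from the gene. On the other side a site scored 1.98 in replicate 1 and 1.89 in replicate 2 (8105779 to 8106856 and 8106066 to 8106589), and both lists placed its maximum at 8106330, 1742 bp from the gene. Replicate 1 had a further peak with a score of 1.88 (8110605 to 8111281) at 2820 bp, nearer to APS1, at 1585 bp. Protein-coding genes were farther from the first and second sites than MIR167a, APS1 being 3087 and 3064 bp from the first and DMC1 5398 bp from the second. MIR167b, MIR167c and MIR167d had no peak. In the family miR160, MIR160c had a peak of replicate 1 with a score of 1.88 (chromosome 5, 19010323 to 19010700), 1276 bp from the gene and 150 bp from AT5G46850, and MIR160a and MIR160b had none.

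The 9 genes of miR165 and miR166, regulators of organ polarity, had no member in more than 1 list by the maxima. In at least 2 lists were 10.6% of the other miRNA genes and 12.9% of protein-coding genes. Counted by any part of a peak within 3000 bp, MIR166b was in all 3 lists. There the peaks of replicates 2 and 3 did not overlap that of replicate 1. MIR166a had a peak of replicate 1 with a score of 2.26 (chromosome 2, 19176283 to 19176829), 254 bp from the gene and 4174 bp from AT2G46690, the nearest protein-coding gene. MIR166b had a peak of replicate 1 with a score of 2.00 (chromosome 3, 22920836 to 22922196) at 481 bp, with AT3G61898 at 825 bp. MIR165a had a peak of replicate 2 with a score of 1.89 (chromosome 1, 76091 to 76620), whose maximum lay inside the protein-coding gene AT1G01180, 2556 bp from MIR165a. MIR165b and MIR166c to MIR166g had none, of which MIR166c and MIR166d are neighbours 1848 bp apart. In the family miR319, MIR319c had a peak of replicate 3 with a score of 1.90 (chromosome 2, 17031914 to 17032401), 2195 bp from the gene and 318 bp from ATG18C, and MIR319a and MIR319b had none.

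The members thus had 35 peaks over the 3 lists. Of these, 20 had their maximum nearer to the miRNA gene than to any protein-coding gene, and they belonged to 8 genes, MIR396b, MIR172b, MIR167a, MIR159b, MIR159a, MIR164b, MIR166a and MIR166b. Peaks of MIR156d, MIR156i and MIR156j could not be among them, because these genes lie inside protein-coding genes. The count of 20 was made for the members only, so no background share stands beside it. The maximum lay within 1000 bp of the member for 14 peaks, between 1000 and 2000 bp for 16 and farther for 5. It fell on the lower-coordinate side for 20, on the higher-coordinate side for 14 and inside the gene for 1. The gene table gives no strand, so whether these sides are upstream was not analysed here. Scores above the median of the list were held by 6 of 15 member peaks in replicate 1, by 6 of 10 in replicate 2 and by 6 of 10 in replicate 3.

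Just inside the limit of 3000 bp were the peaks of MIR167a at 2820 bp (score 1.88) and of MIR172b at 2794 bp (2.58) and 2717 bp (2.13), whose lists also had a nearer peak, and then those of MIR165a at 2556 bp (1.89) and MIR319c at 2195 bp (1.90), the sole peaks of these genes. Just outside were peaks at 3007 bp from MIR156e in replicate 1 (1.93), and at 3157 and 3516 bp from MIR166b in replicates 2 and 3 (2.08 and 1.95). MIR156j had overlapping peaks there in every list, at 3803, 3281 and 3459 bp in replicates 1, 2 and 3. They scored 2.80, 1.89 and 1.95. MIR167a had a further site there in every list, at 3411, 3388 and 3552 bp in replicates 1, 2 and 3, with scores of 2.36, 2.35 and 3.09.

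Genes on which these families act were examined in the same way, as a list of 46 established targets that was drawn from general knowledge and need not be complete. A peak in all 3 lists was found for 20 of them (43.5%, 95% Wilson interval 30.2 to 57.8%), against 6.30% of all nuclear protein-coding genes, and a peak in at least 1 list for 29 (63.0%, 48.6 to 75.5%), against 26.0%. Targets were longer, with a median of 2758 bp against 2078 bp, and had a median of 8938.5 bp between their neighbouring protein-coding genes, against 5357 bp. Both distances again include the gene itself. The part of these lengths was not tested, and several targets, among them AP2, PHB, ARF8, TCP4 and GRF8, were known to lie near recurrent sites when the list was made. SPL6 and ARF17 lie beyond the chromosome 1 peaks of replicate 3 and could be found in at most 2 lists. SPL10 and SPL11 are neighbours and shared 3 of their peaks.

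**Figure D4:**
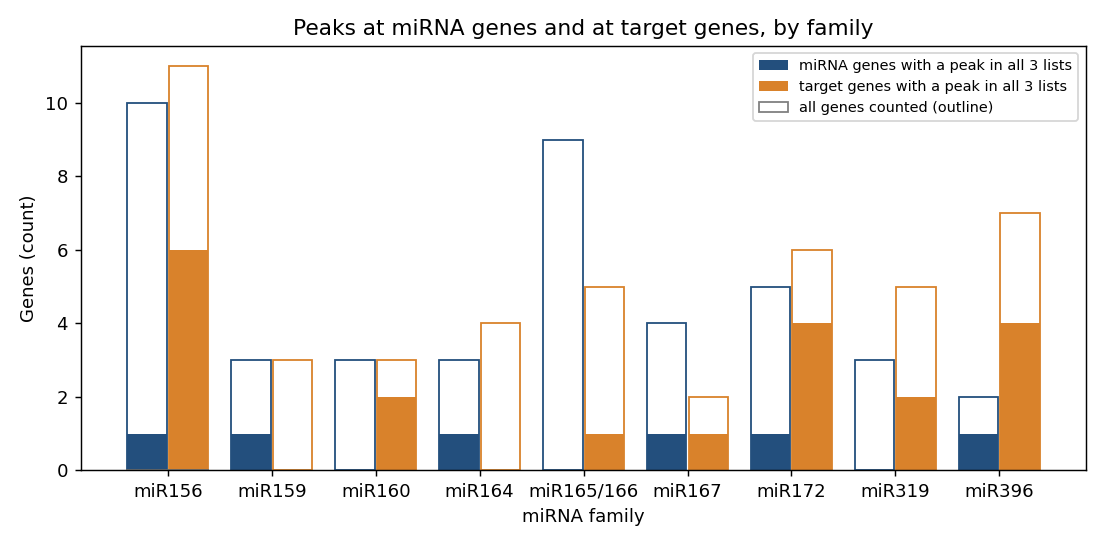
Number of genes (y axis) in each miRNA family (x axis), with miR165 and miR166 joined because they share targets; outlines count all miRNA genes (blue) and all listed target genes (orange), and the filled part counts those with a peak in all 3 lists. For miR396 1 of 2 miRNA genes and 4 of 7 targets are filled, for miR172 1 of 5 and 4 of 6, for miR159 1 of 3 and 0 of 3.

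The counts by family are given without a test of any difference between families, and stand beside 7.39% of the other miRNA genes and 6.30% of protein-coding genes with a peak in all 3 lists. In miR396, 1 of 2 miRNA genes and 4 of 7 target genes (GRF3, GRF4, GRF8 and GRF9, which encode growth-regulating factors) had a peak in all 3 lists. In miR172 the numbers were 1 of 5 and 4 of 6 (AP2, TOE3, SMZ and SNZ, all AP2-like repressors of flowering or floral regulators), and in miR167 1 of 4 and 1 of 2 (ARF8). In miR156 they were 1 of 10 and 6 of 11 (SPL3, SPL4, SPL5, SPL9, SPL10 and SPL11, factors that promote the change of phase), with SPL4 and MIR156i counted on the same peaks. The families miR160, miR319 and miR165 with miR166 had no miRNA gene in all 3 lists but 2 of 3 (ARF10 and ARF16), 2 of 5 (TCP2 and TCP4) and 1 of 5 (PHB) of their targets. In miR159 and miR164 it was the other way round, with 1 of 3 miRNA genes each and 0 of 3 and 0 of 4 of the few targets listed. For miR164, CUC1, an organ boundary gene, had a peak in replicate 3 with a score of 2.10 (chromosome 3, 5108279 to 5109791).

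The highest peak near SPL11 scored 2.72, 3.15 and 2.94 in replicates 1, 2 and 3, with its maximum inside the gene in each list (chromosome 1, 9501203 to 9502027, 9501148 to 9502318 and 9501238 to 9502077). SNZ scored 2.31, 2.78 and 2.25, with maxima 789, 723 and 381 bp from the gene. SPL3 scored 2.31, 2.53 and 2.05, and TOE3 scored 2.42, 2.43 and 2.62. At several targets the highest peak was not the same site in each list. GRF9 scored 2.76, 2.26 and 2.03 with maxima at 2716, 1015 and 2713 bp, and ARF10 scored 2.58, 2.11 and 2.40 with maxima at 1103 and 1081 bp and then inside the gene. Counting all their peaks, both genes did have peaks of all 3 lists that overlapped. GRF3 had a peak in each list but no overlap of all 3. In every list the peak at MIR396b scored above the highest peak of each of the 46 targets, whose best scores were 2.80 at SPL9 in replicate 1, 3.15 at SPL11 in replicate 2 and 3.45 at AP2 in replicate 3.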

How the data were processed

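Per the file headers, the authors deposited peak positions (start, end, width and maximum, in bp) and a score per peak, in 1 list per replicate number. The submitters' processing notes name CASAVA 1.8 and the build TAIR10. No source used here states the aligner, peak caller, threshold, control or read depth, and without depth no detection limit could be set. Coordinates are those of the lists. Gene spans came from the RefSeq table of TAIR10.1, whose nuclear positions were taken as those of TAIR10 and are not printed. Peaks were assigned to genes with Python 3.11.15, pandas 2.3.3 and NumPy 2.4.6, a step tested on simulated peaks, and Wilson intervals came from SciPy 1.17.1. Every member is accounted for, with all values where a peak was found. Targets in all 3 lists, and the nearest protein-coding gene, were named. Members and lists were chosen with earlier results of these data known, so no test of a set was made. Scores of different lists were set side by side without assuming a common scale. No sequences are shown.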

Additional observations from a re-analysis of the deposited data

How the results depend on the processing

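The counts reported were 6 members in all 3 lists, 15 in at least 1, and 20 targets in all 3. Percentages in parentheses are shares of the members or of the targets. Percentages after "against" are the share of protein-coding genes under the same rule. At 1000 bp they were 1 (2.38%, MIR396b) and 7 (15.2%) in all 3 lists, against 3.05%, and 9 (21.4%) in at least 1, against 15.9%. The single member is 2.38%, below the protein-coding share, whereas 3000 bp gave 14.3% against 6.30%. At 5000 bp 10 members (23.8%) were in all 3 lists, against 9.83%. Counting any part of a peak within 3000 bp gave 8 members (19.0%) in all 3 lists, adding MIR156j and MIR166b, against 7.30%. It gave 17 members (40.5%) in at least 1, against 28.9%, and left 20 targets (43.5%) in all 3. With the highest-scoring 50% of each list the counts were 3 (7.14%, MIR396b, MIR172b and MIR156i) and 11 (23.9%), against 3.49%. In at least 1 list there were 9 members (21.4%), against 13.7%. Leaving out 1 replicate at a time gave 6 to 8 members (14.3 to 19.0%) in both remaining lists, against 8.11 to 8.69%. The targets in both numbered 20 to 22 (43.5 to 47.8%). In at least 1 list there were 12 to 14 members (28.6 to 33.3%), against 19.7 to 22.8%. Requiring overlap of the lists' peaks by 1 bp left 5 members (11.9%), without MIR167a, and 19 targets (41.3%), against 5.67%. Overlap by 50% of the shorter peak left 4 members (9.52%), also without MIR164b, and 18 targets (39.1%), against 5.55%. A rule chosen after seeing the data counted only maxima nearer to the member than to a protein-coding gene. It gave 4 members in all 3 lists (9.52%, MIR396b, MIR172b, MIR167a and MIR159b) and 8 in at least 1 (19.0%). The 4 members inside protein-coding genes could not pass it. Leaving out the 4 members inside protein-coding genes, also chosen then, gave 5 of 38 (13.2%) and 12 of 38 (31.6%). For these last rules no share of protein-coding genes was computed, so the counts have no background beside them. No paired analysis was possible because each list is 1 replicate's peaks and holds no separate wild-type values.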
